A study of Mus musculus with 8 samples.

Results

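Transcripts that mark dendritic cell subsets were compared between 4T1 tumors of mice given saline and mice given mAb-DXd/IMQ. The set held 10 genes chosen by name: Xcr1, Clec9a, Batf3, Cd209a, Clec10a, Siglech, Flt3, Zbtb46, Itgax, and Itgae. Each symbol matched 1 entry of a count table of 54532 genes, and 10 of the 10 were among the 18511 genes with enough reads to be tested. The 4T1-FLuc line, a mouse triple-negative breast cancer line with a luciferase reporter, had been grown under the skin of female BALB/cJ mice that were 6 weeks old at injection. One group received mAb-DXd/IMQ, called HumCD276-Dxd/IMQ in the sample labels, at 16 mg/kg through the tail vein every 4 days for 5 courses, and the other received saline, which the labels also give as a PBS control. The conjugate is a humanized CD276 antibody that carries both DXd, an inhibitor of topoisomerase I, and IMQ, an imidazoquinoline that stimulates TLR7 and TLR8. No group in the table had the antibody alone or 1 payload alone, so the parts of the conjugate cannot be told apart. RNA came from whole tumors at the end of the study, 4 per group, and each tumor is named here by its group and number. The labels do not tie the numbered tumors to individual mice, so p-values measure the spread between these samples.

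Dendritic cells take up antigen in tissues and present it to T cells. Conventional type 1 cells, which arise under BATF3 and IRF8, carry the chemokine receptor XCR1 and the dead-cell receptor CLEC9A and are known for cross-presenting tumor antigen to CD8+ T cells, whereas conventional type 2 cells present antigen mainly to CD4+ T cells and often carry the lectins CLEC10A and CD209A. Plasmacytoid cells, marked in mice by SIGLECH, express TLR7 and are a source of type I interferon. FLT3 and ZBTB46 are shared more widely in the lineage, and ITGAX (CD11c) and ITGAE (CD103) also occur on macrophages and on resident T cells, respectively.

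Summed over genes, each saline library held 45019927 to 69582375 counts and each mAb-DXd/IMQ library 34591912 to 51625237, a difference with a two-sided p of 0.171 by an exact permutation test over 70 assignments. Levels are given as CPM, the counts of a gene scaled to a common library size with edgeR's TMM factors. A floor of 3 counts corresponded to between 0.0439 and 0.0843 CPM per tumor and covers counting error only. Each of the 10 genes was above this floor in each of the 8 tumors.

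None of the dendritic cell markers passed the thresholds of the comparison, but 9 of the 10 had a lower fitted level in mAb-DXd/IMQ tumors and 1, Itgax, a higher one. By edgeR's quasi-likelihood test at an FDR under 0.05 with an absolute log2 fold change above 0.58, 0 of 10 passed, against 1.06% of tested genes in either direction and 0.519% as lower. At an unadjusted p under 0.05, 6 of the 10 were lower (Itgae, Clec10a, Clec9a, Flt3, Siglech, and Xcr1) and 0 were higher, against 9.79% of tested genes as lower and 18.9% in either direction. By limma-voom 0 of 10 passed, against 0.475% of tested genes as lower and 0.94% in either direction, and by edgeR's newer quasi-likelihood method 0 of 10, against 0.746% as lower and 1.57% in either direction. With DESeq2, Clec10a and Itgae passed as lower, 2 of 10 against 1.89% of tested genes as lower and 4.25% in either direction. The 10 genes had a median log2 fold change of -1.02, and all tested genes had a median of 0.022 with 47.4% below 0. With all 8 tumors the groups overlapped for 10 of the 10 genes, whereas they did not overlap for 13.1% of tested genes, and this count depended on saline tumor 1, as given below. In bulk tumors, fewer cells of a type and less RNA per cell cannot be told apart.

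**Figure D1:**
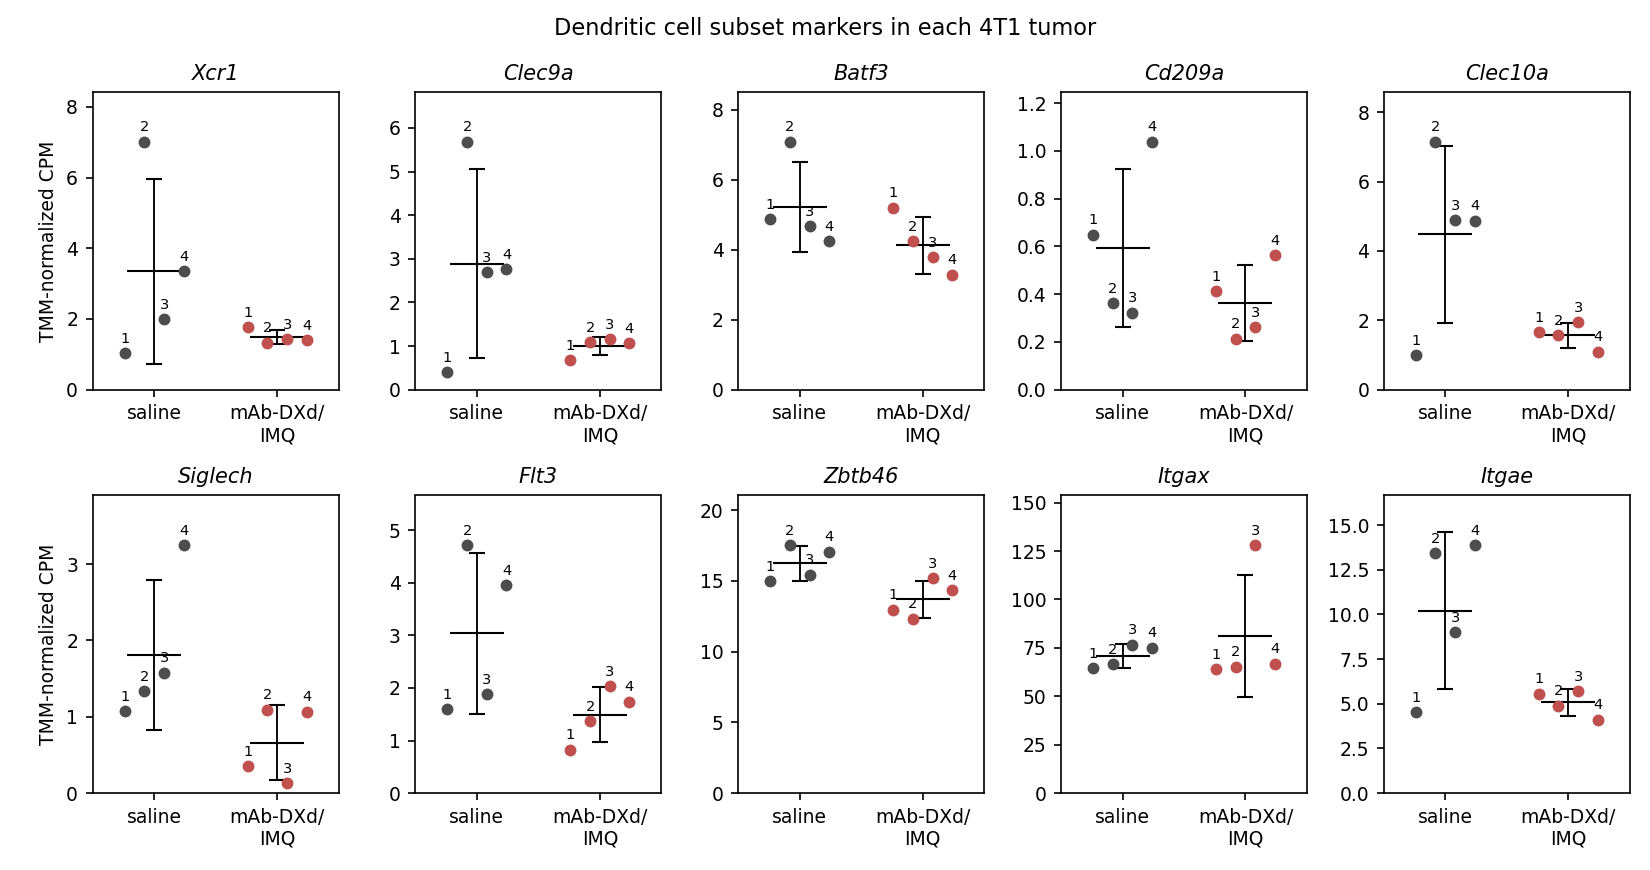
TMM-normalized CPM (vertical axes, each from 0) of the 10 markers in each saline and mAb-DXd/IMQ tumor, with tumor numbers beside the points, a long line for the mean, and bars for 1 SD (n = 4 per group). Saline tumor 1 lies with the mAb-DXd/IMQ tumors for Xcr1, Clec9a, Clec10a, and Itgae, and mAb-DXd/IMQ tumor 3 stands above all others for Itgax.

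Xcr1 (ENSMUSG00000060509, chromosome 9 from 123852315 to 123862029, minus strand), the receptor for XCL1, had 1.03, 7.02, 1.99, and 3.35 CPM in saline tumors 1 to 4 and 1.77, 1.33, 1.42, and 1.41 CPM in mAb-DXd/IMQ tumors 1 to 4. Saline tumor 2 was high, saline tumor 1 was below every mAb-DXd/IMQ tumor, and the other 3 saline tumors were above every mAb-DXd/IMQ tumor. This gave a log2 fold change of -1.17 with a standard error of 0.49 (adjusted p of 0.226, edgeR).

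Clec9a (ENSMUSG00000046080, chromosome 6 from 129408862 to 129424763, plus strand), which binds actin filaments exposed by dead cells, ranked the saline tumors in the same order as Xcr1 but not the mAb-DXd/IMQ tumors. It had 0.41, 5.69, 2.69, and 2.76 CPM in saline tumors 1 to 4 and 0.68, 1.09, 1.16, and 1.07 CPM in mAb-DXd/IMQ tumors 1 to 4. Saline tumor 1 was again the lowest of the 8, with 20 counts, and the remaining saline tumors lay above all mAb-DXd/IMQ tumors. The mAb-DXd/IMQ tumor with the lowest Clec9a, tumor 1, had the highest Xcr1 of its group. For Clec9a edgeR gave a log2 fold change of -1.53, a standard error of 0.58, and an adjusted p of 0.194. Between the lowest and the highest saline tumor the level differed 14.03-fold, and among mAb-DXd/IMQ tumors 1.70-fold. Clec9a shares 184 exon bases with Clec1b on the same strand, and Clec1b had 54 counts in all tumors against 786 for Clec9a, so part of the Clec9a count is uncertain.

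The start regions of Xcr1, Clec9a, and Itgax are shown for reference, and no link between their letters and the levels was tested. Itgax ordered the saline tumors differently from Xcr1 and Clec9a. Xcr1 and Clec9a had the same order among saline tumors, which was also that of Flt3 and Zbtb46. The sequences are from RefSeq on GRCm38.p6, run 5′ to 3′ on the strand of the gene from 250 bases before to 50 bases after the start, and belong to the reference strain, not to BALB/cJ. Capitals mark a match to TGANTCA, the AP-1 type element.
Xcr1, chr9:123861980-123862279, minus strand: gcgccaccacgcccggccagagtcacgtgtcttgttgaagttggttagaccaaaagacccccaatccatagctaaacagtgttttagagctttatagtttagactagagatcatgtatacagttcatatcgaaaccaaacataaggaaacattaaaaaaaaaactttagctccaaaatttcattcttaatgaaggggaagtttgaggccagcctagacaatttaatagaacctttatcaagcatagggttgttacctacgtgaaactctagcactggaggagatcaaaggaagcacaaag
Clec9a, chr6:129408612-129408911, plus strand: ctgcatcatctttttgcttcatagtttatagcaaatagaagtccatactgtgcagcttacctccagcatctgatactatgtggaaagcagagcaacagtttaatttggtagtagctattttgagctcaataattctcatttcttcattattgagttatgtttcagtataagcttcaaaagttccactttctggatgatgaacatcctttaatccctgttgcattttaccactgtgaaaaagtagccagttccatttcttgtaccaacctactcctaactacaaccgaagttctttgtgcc
Itgax, chr7:128129300-128129599, plus strand: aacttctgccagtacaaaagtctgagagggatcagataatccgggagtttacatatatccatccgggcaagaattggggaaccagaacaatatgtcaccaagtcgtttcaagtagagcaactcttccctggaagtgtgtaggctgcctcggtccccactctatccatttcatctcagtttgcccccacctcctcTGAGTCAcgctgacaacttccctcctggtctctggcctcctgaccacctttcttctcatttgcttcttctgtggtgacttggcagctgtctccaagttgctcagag
Promoters were given for 8 of the 10 genes and not for Clec10a and Itgae. The letters TGANTCA, searched on both strands, occurred in 2 of the 8 (Zbtb46 and Itgax) and in 7.81% of 32851 promoters of this length. The RefSeq start used for Zbtb46 lay 35038 bases inside the gene as the count table bounds it, and that of Batf3 567 bases inside, whereas the other 6 were within 6 bases of the gene's 5′ end in the table. A match is a string of letters and not a shown binding site.

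Batf3 (ENSMUSG00000026630, chromosome 1), the transcription factor that type 1 cells need, did not share the spread of the receptors. It had 4.87, 7.09, 4.68, and 4.24 CPM in saline tumors 1 to 4 and 5.20, 4.24, 3.78, and 3.29 CPM in mAb-DXd/IMQ tumors 1 to 4. Saline tumor 2 was the highest, saline tumor 1 was second among saline tumors, and the groups overlapped between 4.24 and 5.20 CPM. With a standard error of 0.24, the log2 fold change of -0.34 did not pass (adjusted p of 0.477, edgeR).

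Itgae (ENSMUSG00000005947, chromosome 11 from 73090583 to 73147446, plus strand) encodes CD103, the integrin chain of tissue type 1 cells that pairs with ITGB7 and binds E-cadherin. It had 4.52, 13.4, 9.01, and 13.9 CPM in saline tumors 1 to 4 and 5.57, 4.90, 5.72, and 4.10 CPM in mAb-DXd/IMQ tumors 1 to 4. Saline tumor 1 fell inside the mAb-DXd/IMQ range, and the remaining saline tumors were above it. Its log2 fold change of -1.01 had a standard error of 0.31 and an adjusted p of 0.121 (edgeR). Haspin lies within the Itgae gene on the opposite strand without sharing exon bases, and its 3660 counts in all tumors exceeded the 3177 of Itgae. Since the strand setting of the counting was not given in the sources used here, reads from the pair may not be fully separated. Haspin had between 7.45 and 9.82 CPM in saline tumors and between 9.79 and 10.7 CPM in mAb-DXd/IMQ tumors. The part of Haspin reads in the Itgae count was not tested. The partner Itgb7 had between 14.9 and 21.5 CPM in saline tumors and between 19.2 and 23.7 CPM in mAb-DXd/IMQ tumors. Cdh1, the ligand gene, had between 190.6 and 536 CPM and between 319 and 424 CPM, and 0 of these 2 genes passed by edgeR, DESeq2, or limma-voom, with 1 at an unadjusted p under 0.05, Itgb7 as higher.

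Among type 2 markers, Clec10a (ENSMUSG00000000318, chromosome 11 from 70156197 to 70170834, plus strand), a galactose-type lectin also found on macrophages, showed the same arrangement of tumors as the type 1 receptors. It had 0.99, 7.15, 4.89, and 4.87 CPM in saline tumors 1 to 4 and 1.65, 1.56, 1.94, and 1.10 CPM in mAb-DXd/IMQ tumors 1 to 4. Saline tumor 1 was the lowest of the 8, and saline tumors 2, 3, and 4 were above every mAb-DXd/IMQ tumor. In edgeR the log2 fold change was -1.51 with a standard error of 0.48 and an adjusted p of 0.125. Of the 100-base windows of its transcripts, 2.64% also occur in its paralog Mgl2, and Mgl2 had more counts than Clec10a in each tumor (2767 against 317 in saline tumor 2), so part of the Clec10a count may belong to Mgl2, and how much was not tested. Cd209a (ENSMUSG00000031494, chromosome 8), a C-type lectin of the DC-SIGN family, had between 0.32 and 1.04 CPM in saline tumors and between 0.21 and 0.56 CPM in mAb-DXd/IMQ tumors. These overlapping levels rest on 10 to 71 counts per tumor, and the log2 fold change was -0.72 with a standard error of 0.51 (adjusted p of 0.481, edgeR).

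The plasmacytoid marker Siglech (ENSMUSG00000051504, chromosome 7 from 55768178 to 55778925, plus strand) had 1.07, 1.33, 1.58, and 3.25 CPM in saline tumors 1 to 4 and 0.35, 1.09, 0.13, and 1.07 CPM in mAb-DXd/IMQ tumors 1 to 4. Saline tumor 4 was high, mAb-DXd/IMQ tumors 1 and 3 were low with 17 and 6 counts, and the groups met where saline tumor 1 lay just under mAb-DXd/IMQ tumor 2. This corresponded to a log2 fold change of -1.46 with a standard error of 0.60 (adjusted p of 0.222, edgeR).

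Among genes shared by the lineage, Flt3 (ENSMUSG00000042817, chromosome 5), the receptor for the growth factor that sustains dendritic cells, had 1.60, 4.72, 1.88, and 3.95 CPM in saline tumors 1 to 4 and 0.83, 1.37, 2.03, and 1.74 CPM in mAb-DXd/IMQ tumors 1 to 4. Saline tumors 2 and 4 were high, and saline tumors 1 and 3 lay within the mAb-DXd/IMQ range. A log2 fold change of -1.03 resulted, with a standard error of 0.41 and an adjusted p of 0.211 (edgeR). Its ligand gene Flt3l had between 6.72 and 9.24 CPM in saline tumors and between 4.93 and 10.4 CPM in mAb-DXd/IMQ tumors, so these ranges overlapped.

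Zbtb46 (ENSMUSG00000027583, chromosome 2), a transcription factor of conventional dendritic cells that endothelial cells also express, had 14.98, 17.5, 15.4, and 17.1 CPM in saline tumors 1 to 4 and 12.95, 12.3, 15.2, and 14.3 CPM in mAb-DXd/IMQ tumors 1 to 4. Its tumors were close together, and only saline tumor 1 and mAb-DXd/IMQ tumor 3 made the groups overlap. The fitted log2 fold change was -0.25 with a standard error of 0.13 (adjusted p of 0.351, edgeR). Itgax (ENSMUSG00000030789, chromosome 7 from 128129547 to 128150657, plus strand), the CD11c gene, had 64.6, 66.7, 76.7, and 75.2 CPM in saline tumors 1 to 4 and 64.2, 65.3, 128, and 66.8 CPM in mAb-DXd/IMQ tumors 1 to 4. Only mAb-DXd/IMQ tumor 3 was high, and the other 3 mAb-DXd/IMQ tumors lay at the low end of the saline range or just below it. For Itgax the log2 fold change was 0.20 with a standard error of 0.21 (adjusted p of 0.665, edgeR) and turned to -0.12 without mAb-DXd/IMQ tumor 3. In that tumor Ptprc, the pan-leukocyte CD45 gene, was also the highest of the 8 at 193 CPM, against 119 to 176 CPM in the others. Itgb2, the chain that pairs with CD11c, was 129 CPM there, within the range of 111 to 175 CPM in the others. The part of leukocyte content in the Itgax value was not tested. For Itgax, 3.05% of the 100-base windows also occur in its neighbor in sequence, Itgad.

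To compare levels between genes, CPM were divided by gene length in kilobases and are given as FPKM. In saline tumors Itgax led with 14.7 ± 1.26 FPKM (SD, n = 4), above the range of every other marker. Batf3 followed with 3.27 ± 0.80 FPKM, Itgae with 2.23 ± 0.96, Zbtb46 with 1.91 ± 0.15, and Clec10a with 1.54 ± 0.88 FPKM. Below these were Clec9a with 0.88 ± 0.66, Xcr1 with 0.75 ± 0.59, Siglech with 0.53 ± 0.29, Flt3 with 0.49 ± 0.25, and Cd209a with 0.37 ± 0.21 FPKM. From Batf3 downward, each neighboring pair in this order overlapped over the saline tumors. In mAb-DXd/IMQ tumors Itgax (16.9 ± 6.53 FPKM), Batf3 (2.58 ± 0.51), Zbtb46 (1.61 ± 0.15), and Itgae (1.11 ± 0.16) were separated from their neighbors in the order. Clec10a (0.54 ± 0.12 FPKM) was the fifth, and it overlapped the range of Xcr1 (0.33 ± 0.045 FPKM). The lowest 5 were Xcr1, Clec9a, Flt3, Cd209a, and Siglech, between 0.20 and 0.33 FPKM on average, and neighboring pairs among them overlapped.

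**Figure D2:**
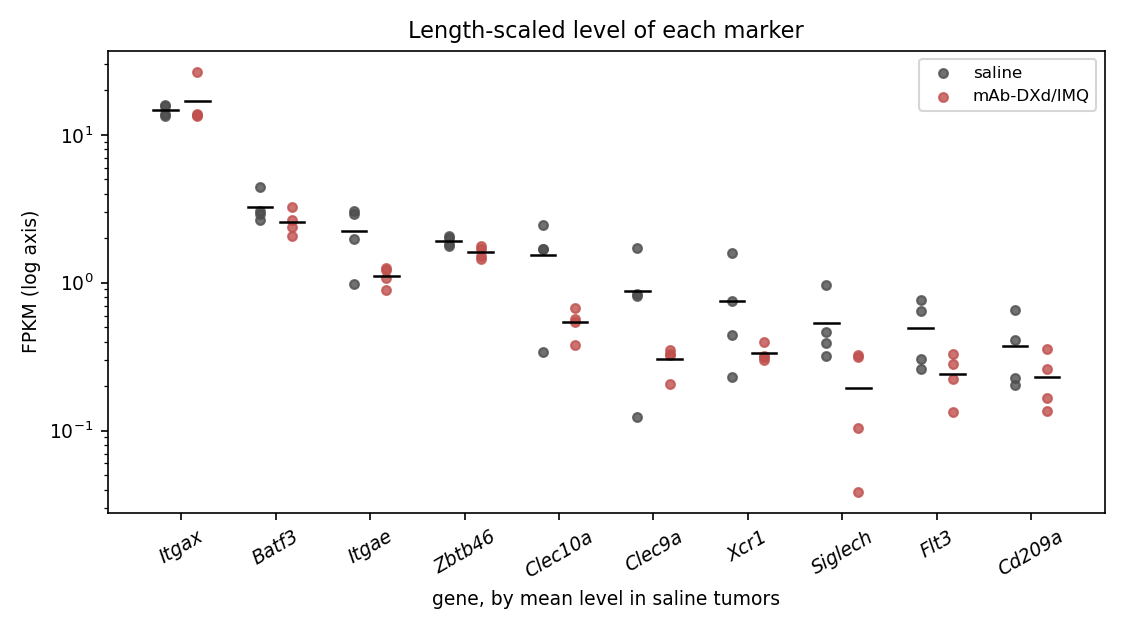
Length-scaled level of each marker in FPKM (log axis) in saline tumors (gray) and mAb-DXd/IMQ tumors (red), with 1 point per tumor and a line for the mean of 4, genes ordered by their mean in saline tumors. Itgax lies above the rest at 14.7 FPKM in saline tumors, and Clec9a spans the widest range among saline tumors.

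Across the markers, saline tumor 1 was the lowest saline tumor for 8 of the 10 markers, all but Batf3 and Cd209a, and it lay at or below the highest mAb-DXd/IMQ tumor for 9 of the 10, all but Cd209a. Of tested genes listed below, it was the lowest saline tumor for 9 of 9 macrophage and 8 of 8 T cell genes. It was also lowest for 8 of 9 shared lineage genes and 11 of 13 genes of mature cells. This held for 5 of 10 type 1, 4 of 9 type 2, 4 of 11 plasmacytoid, and 0 of 5 neutrophil genes. Saline tumor 2 was the highest saline tumor for 6 of the 10. The SD among saline tumors exceeded that among mAb-DXd/IMQ tumors for 8 of the 10, with Zbtb46 and Itgax as the other 2. For these counts of markers, the shares over all tested genes were not computed. In the ratio of highest to lowest tumor, Siglech joined Zbtb46 and Itgax, at 3.02-fold in saline and 8.33-fold in mAb-DXd/IMQ tumors. The remaining markers also spread more in saline tumors by this ratio, Batf3 only slightly (1.67-fold against 1.58-fold).

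Leaving out saline tumor 1 brought 3 of the 10 markers past the thresholds as lower, against 0.626% of tested genes as lower and 1.08% in either direction in that fit. These were Clec9a (log2 fold change -1.89, adjusted p = 0.041), Clec10a (-1.85, adjusted p = 0.026), and Itgae (-1.26, adjusted p = 0.032, all edgeR). Over all the alternatives tried, adjusted p lay between 0.041 and 0.469 for Clec9a, between 0.019 and 0.298 for Clec10a, and between 0.022 and 0.316 for Itgae. Leaving out any other single tumor brought 0 of 10 past the thresholds. Without saline tumor 1, levels in the groups were fully apart for 6 of the 10 (Xcr1, Clec9a, Clec10a, Siglech, Zbtb46, and Itgae) and for 18.7% of tested genes. Without any other single tumor this held for 0 or 1 of the 10 and for 15.3% to 21% of tested genes. These counts were added after seeing the data, and since saline tumor 1 was already known as the lowest saline tumor for most markers, the separation without it follows from that choice. In the other direction, the log2 fold change of Xcr1 was -0.53 without saline tumor 2, and that of Clec9a was -0.97. The same 9 genes had a negative log2 fold change in every alternative in which they were tested.

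**Figure D3:**
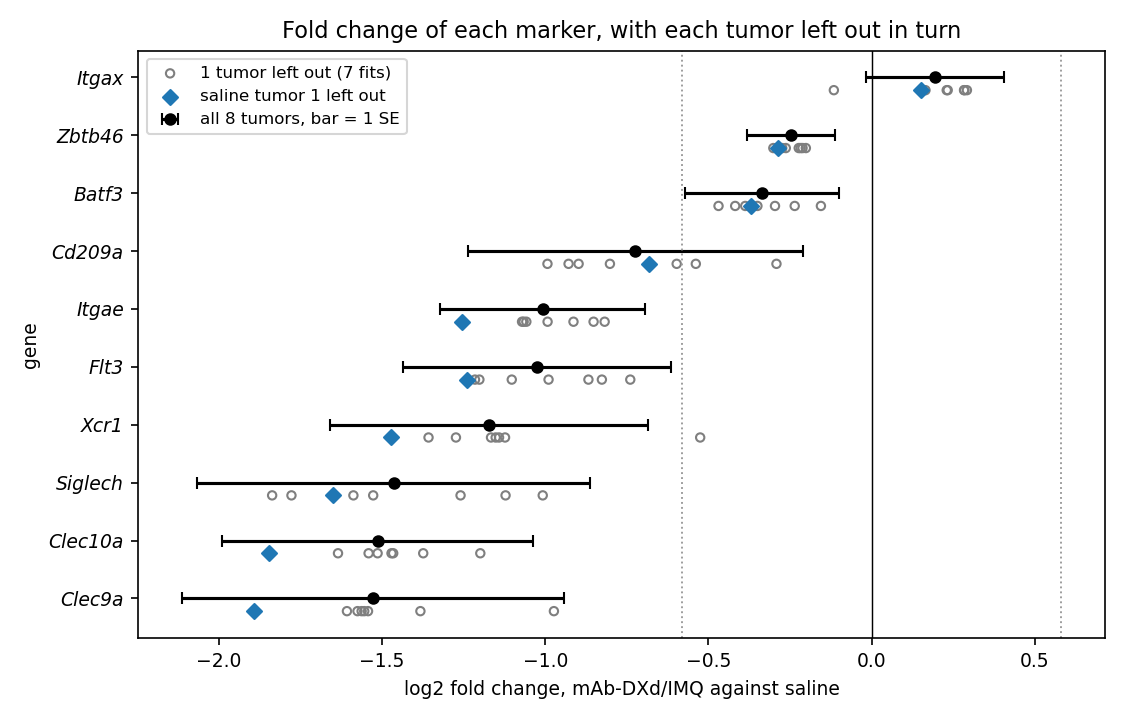
Log2 fold change of each marker in mAb-DXd/IMQ against saline tumors, with 1 standard error for the fit on all 8 tumors (black), the 7 other fits that each leave out 1 tumor (open circles), and the fit without saline tumor 1 (blue diamonds). Dotted lines mark the fold threshold of 0.58 in either direction, and the lines for Clec9a, Clec10a, and Itgae reach their lowest value without saline tumor 1.

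Further genes of each subset and of other cell types were grouped in lists. Over 21 such lists, 5 of 127 tested genes passed the thresholds, and each of the 5 was lower in mAb-DXd/IMQ tumors, beside the 0.519% of all tested genes that passed as lower. With DESeq2 24 of the 127 passed, 20 lower and 4 higher (Cd40, Irf7, Pax5, and Eomes, named after their values were seen), beside 4.25% of all tested genes in either direction and 1.89% as lower. With limma-voom 6 passed, all lower, beside 0.475% as lower, and with edgeR's newer method 9, 8 lower and 1 higher, beside 1.57% in either direction and 0.746% as lower. In the type 1 program, 8 of 10 genes had a negative and 2 a positive log2 fold change, with a median of -0.61. By edgeR and by limma-voom 1 of 10 passed, with 6 at an unadjusted p under 0.05, all lower, and 4 by DESeq2 (Id2, Cadm1, Naaa, and Gcsam). The gene that passed by edgeR was Id2, a helix-loop-helix factor needed for type 1 cells but expressed far more widely. It had 98.2, 82.3, 77.6, and 104 CPM in saline tumors 1 to 4 and 54.6, 52.3, 43.9, and 57.3 CPM in mAb-DXd/IMQ tumors 1 to 4. The groups did not overlap, and saline tumor 1 was among the high tumors here (log2 fold change -0.80, standard error 0.13, adjusted p = 0.022, edgeR). Without saline tumor 3, saline tumor 4, mAb-DXd/IMQ tumor 2, or mAb-DXd/IMQ tumor 4 Id2 no longer passed, nor with a replicate block or without the 2 tumors with epidermal keratin counts described below, with adjusted p from 1.48e-05 to 0.096 over its alternatives.

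Other genes of the type 1 list are named here after their values were seen. Naaa, a lysosomal amidase, had between 54.7 and 116 CPM in saline tumors and between 40.1 and 51.6 CPM in mAb-DXd/IMQ tumors. The groups did not overlap, and the adjusted p was 0.069 (edgeR, 0.0064 to 0.179 over the alternatives), and it passed in DESeq2, without a filter, and without saline tumor 1. Wdfy4, which is required for cross-presentation, had 11.1, 50.8, 23.5, and 27.7 CPM in saline tumors 1 to 4 and between 11.4 and 22.6 CPM in mAb-DXd/IMQ tumors. The adhesion gene Cadm1 had 9.995, 27.1, 19.4, and 31.9 CPM in saline tumors 1 to 4 and between 6.998 and 13.96 CPM in mAb-DXd/IMQ tumors (adjusted p from 0.018 in DESeq2 to 0.314 over the alternatives). Gcsam, a germinal center signaling gene, was low, with between 0.53 and 2.64 CPM in saline tumors and between 0.20 and 0.66 CPM in mAb-DXd/IMQ tumors (log2 fold change -1.92, adjusted p = 0.115, edgeR, 0.023 in DESeq2 and up to 0.276 over the alternatives). Over the whole list, saline tumor 1 was the lowest saline tumor for 5 of the 10 genes (Cadm1, Naaa, Wdfy4, Gcsam, and Ppt1) and the highest for 1, Tlr3. The most abundant genes of the list were Ppt1, Irf8, and Tlr3. Irf8 had between 114 and 142 CPM in saline tumors and between 92.6 and 116 CPM in mAb-DXd/IMQ tumors. Ppt1 and Tlr3 overlapped between the groups. The 10 genes summed to 553, 667, 586, and 624 CPM in saline tumors 1 to 4 and 501, 467, 484, and 447 CPM in mAb-DXd/IMQ tumors 1 to 4.

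In the type 2 program, 8 of 9 tested genes had a negative log2 fold change (7 under upper-quartile scaling or library size alone), and the median was -0.32. By edgeR 0 passed, with 5 at an unadjusted p under 0.05 (4 lower, 1 higher), 1 by DESeq2 (Irf4, lower), and 0 by limma-voom. Notch2, Sirpa, and Relb were the most abundant, with Notch2 between 190.2 and 246 CPM in saline tumors and between 132 and 188 CPM in mAb-DXd/IMQ tumors. Mgl2, the paralog of Clec10a, had 3.43, 62.4, 28.2, and 26.3 CPM in saline tumors 1 to 4 and 22.2, 15.7, 7.91, and 12.3 CPM in mAb-DXd/IMQ tumors 1 to 4. Saline tumor 1 was below every other tumor for Mgl2, and saline tumor 2 was above every other. Of the plasmacytoid program, 7 of 11 genes were negative (6 under upper-quartile scaling), with a median of -0.18. By edgeR, DESeq2, and limma-voom 0 passed, with 4 at an unadjusted p under 0.05, 2 lower (Tcf4 and Runx2) and 2 higher (Bst2 and Ly6d). Its sum in mAb-DXd/IMQ and saline tumors was 847 to 1072 CPM against 497 to 926 CPM, and its most abundant gene on average was Bst2, an interferon-induced gene of many cells with 600.1 to 813 CPM against 170.0 to 625 CPM. Tcf4, the factor that plasmacytoid cells need, had between 178 and 249 CPM in saline tumors and between 143 and 191 CPM in mAb-DXd/IMQ tumors.

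Genes shared by the lineage or by FLT3 and GM-CSF signaling were negative for 8 of 9 (7 under upper-quartile scaling), with a median of -0.33 and 0 past the thresholds by edgeR, DESeq2, and limma-voom (4 at an unadjusted p under 0.05, all lower). Csf2rb, Csf2ra, and Spi1 were the most abundant of these, and each overlapped between groups. In the list of mature and migratory cells, 8 of 13 were negative (6 under upper-quartile scaling or library size alone), and the median was -0.023. By edgeR and limma-voom 0 passed, with 3 at an unadjusted p under 0.05 (1 lower, 2 higher) and 2 by DESeq2 (Cd40 as higher, Il12b as lower). Il12b, the IL-12 p40 gene, had 0.51, 3.14, 1.22, and 2.72 CPM in saline tumors 1 to 4 and between 0.42 and 0.71 CPM in mAb-DXd/IMQ tumors, with saline tumor 1 inside the lower range. Cd40, the costimulatory receptor, was between 17.9 and 23.63 CPM in saline tumors and between 23.64 and 51.9 CPM in mAb-DXd/IMQ tumors (log2 fold change 0.83, adjusted p = 0.076, edgeR, 0.0092 to 0.190 over its alternatives). Its groups did not overlap, but their nearest tumors had almost the same level. Fscn1, Marcksl1, and Cacnb3, the most abundant 3 of the list, are also expressed by other cells and overlapped between groups.

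Ligands and partners of the markers were measured too. Xcl1, the ligand gene of XCR1, had 1.03, 2.10, 2.76, and 4.21 CPM in saline tumors 1 to 4 and 2.60, 1.73, 1.53, and 1.83 CPM in mAb-DXd/IMQ tumors 1 to 4, so the groups overlapped. Of the recruitment ligands, 4 of 8 tested were negative and 4 positive (6 and 2 with a correction for gene length), and 0 passed by edgeR, DESeq2, and limma-voom, with 1 at an unadjusted p under 0.05, higher. Csf1, Cxcl9, and Ccl5 were the most abundant. Ccl20 was at most 0.17 CPM in any tumor, and Ccl19 is listed with 0 counts in every tumor. Both Ccl19 and Ccl21a are uncertain, because each symbol belongs to 2 entries of the table.

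The payload IMQ acts on endosomal toll-like receptors, and 7 of 9 genes of that pathway were negative (6 under upper-quartile scaling), with a median of -0.23. By edgeR and limma-voom 0 passed, with 3 at an unadjusted p under 0.05 (2 lower, 1 higher), 1 by DESeq2 (Irf7, higher), and 1 by edgeR's newer method. Irf7, Unc93b1, and Myd88 were the most abundant. Irf7, an interferon-induced transcription factor, had between 55.2 and 173 CPM in saline tumors and between 249 and 287 CPM in mAb-DXd/IMQ tumors without overlap, with an adjusted p of 0.059 (edgeR). Tlr7 itself had 4.56, 21.5, 10.9, and 12.8 CPM in saline tumors 1 to 4 and between 8.46 and 15.6 CPM in mAb-DXd/IMQ tumors. For the MHC class II genes with which these cells present antigen, 7 of 8 were negative, with a median of -0.41. By edgeR, DESeq2, and limma-voom 1 passed, with 4 at an unadjusted p under 0.05, all lower. By edgeR this was Ciita, the class II transactivator, with 135, 110, 124, and 93.8 CPM in saline tumors 1 to 4 and 51.9, 64.6, 62.6, and 61.6 CPM in mAb-DXd/IMQ tumors 1 to 4. The groups did not overlap (log2 fold change -0.94, standard error 0.13, adjusted p = 0.020, edgeR, 1.79e-07 to 0.081 over its alternatives), and Ciita no longer passed without saline tumor 3, without mAb-DXd/IMQ tumor 4, without the 2 tumors with epidermal keratin counts described below, or with tumors of the same number as a replicate block. Cd74, H2-Eb1, and H2-Ab1, the most abundant, overlapped between groups, and their lowest values of the 8 were in mAb-DXd/IMQ tumor 3.

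Macrophage genes had a median of -0.36, with 9 of 9 negative (8 under upper-quartile scaling); by edgeR and limma-voom 0 passed, with 1 at an unadjusted p under 0.05, 1 by DESeq2 (Mrc1 in both, lower), and 1 by edgeR's newer method. Their list summed to 927, 2983, 1668, and 1933 CPM in saline tumors 1 to 4 and 1732, 1415, 1496, and 1148 CPM in mAb-DXd/IMQ tumors 1 to 4, with C1qa, C1qc, and C1qb as its most abundant genes and none of the 9 at 0. Saline tumor 1 had the lowest sum of the 8 and saline tumor 2 the highest, which is the order of saline tumors 1 and 2 for Xcr1, Clec9a, and Clec10a. The monocyte list (2 of 4 negative; 0 passed by edgeR, 3 at an unadjusted p under 0.05, 1 lower and 2 higher, 1 by DESeq2, lower) summed to 101, 309, 221, and 211 CPM in saline tumors 1 to 4 and 190.5, 155, 206, and 167 CPM in mAb-DXd/IMQ tumors 1 to 4, led by Ccr2 and Plac8. Here too saline tumor 1 was the lowest and saline tumor 2 the highest. Ptprc was less uneven, with 125, 176, 151, and 170 CPM in saline tumors 1 to 4 and 125, 121, 193, and 119 CPM in mAb-DXd/IMQ tumors 1 to 4. The part of these cells in the values of the markers was not tested.

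**Figure D4:**
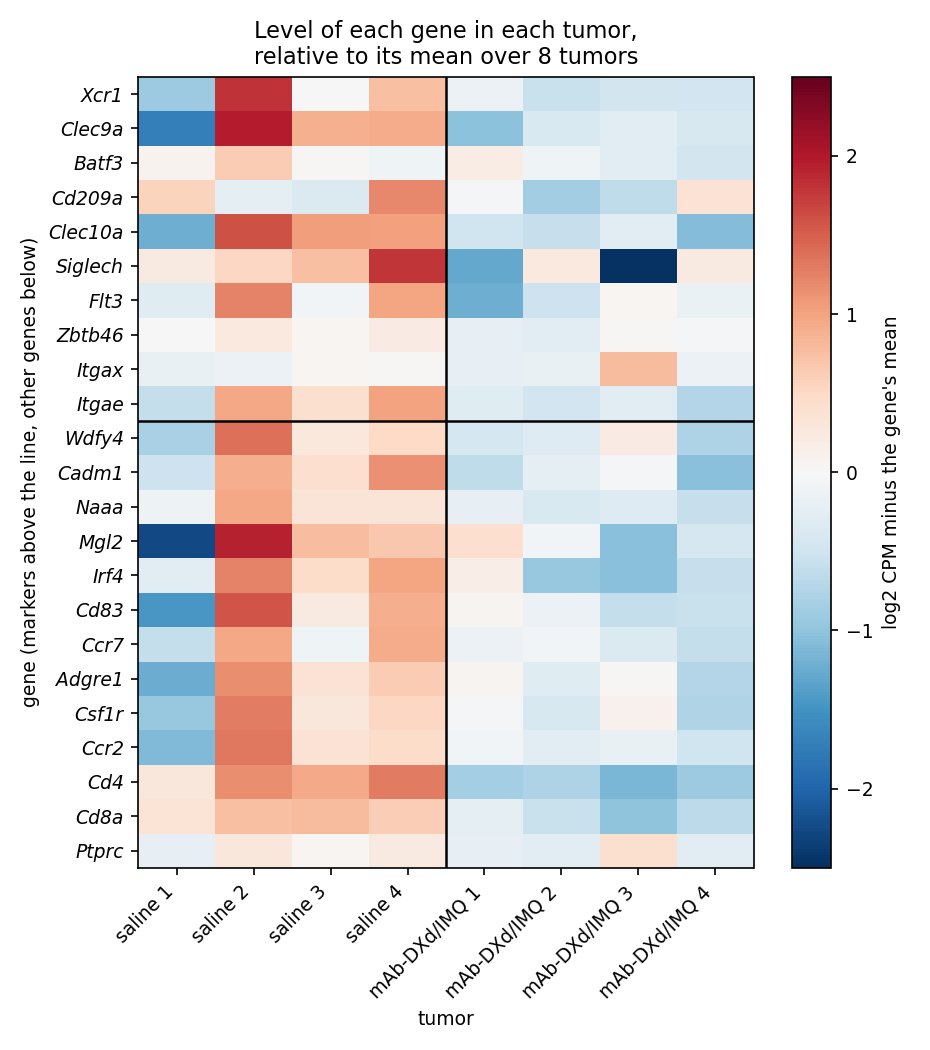
Level of the 10 markers (above the line) and of 13 other genes (below it) in each tumor, as log2 CPM minus the mean of the gene over 8 tumors, with red above and blue below the mean and colors limited to 2.5 in either direction. Saline tumor 1 is blue and saline tumor 2 red for Xcr1, Clec9a, and Clec10a and for the macrophage genes Adgre1 and Csf1r, while Cd4 and Cd8a divide the groups.

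Profiles nearest to that of the type 1 receptors were found by the root mean square difference of centered log2 CPM from the mean of Xcr1 and Clec9a over the 8 tumors, among 14637 tested genes with a mean of at least 1 CPM. The nearest 5 were Selenop at 0.251, Tlr8 at 0.290, Cyp27a1 at 0.300, Cd83 at 0.308, and Gpr34 at 0.309 log2 units, where the receptor profile itself deviated from its mean by 0.942. Selenop, the nearest, had 90.9, 569, 278, and 290 CPM in saline tumors 1 to 4 and 158, 123, 157, and 106 CPM in mAb-DXd/IMQ tumors 1 to 4. Selenop encodes a secreted selenoprotein, Tlr8 an endosomal receptor, Cyp27a1 a sterol hydroxylase, Cd83 a maturation marker, and Gpr34 a lipid receptor. The selection used the levels in all 8 tumors, so the order of tumors in these genes follows from it and no test of them is given.

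In the T cell list, 8 of 8 were negative with a median of -1.03, and 2 of 8 passed as lower, Cd4 (log2 fold change -1.91, adjusted p = 0.020) and Cd8a (-1.22, adjusted p = 0.020, both edgeR). At an unadjusted p under 0.05 were 7 of 8, all lower, DESeq2 passed 6 (Cd3d, Cd3e, Cd4, Cd8a, Cd8b1, and Trac), and limma-voom and edgeR's newer method passed 3 each. The list summed to 76.7, 116, 110, and 100.3 CPM in saline tumors 1 to 4 and 66.3, 55.2, 35.1, and 48.2 CPM in mAb-DXd/IMQ tumors 1 to 4, led by Cd8a, Lck, and Cd3g, with none at 0. Cd8a, also expressed by some dendritic cells, was 28.2 CPM in saline tumor 1, which was above every mAb-DXd/IMQ tumor (11.1 to 18.8 CPM). Cd4 was 4.48 CPM in that tumor and between 1.66 and 2.14 CPM in mAb-DXd/IMQ tumors. Neither Cd4 nor Cd8a passed without saline tumor 3, without saline tumor 4, without mAb-DXd/IMQ tumor 4, or with a replicate block, with adjusted p up to 0.085 over their alternatives. Cd8a also did not pass without the 2 tumors with epidermal keratin counts (adjusted p = 0.051). Since CD103 also occurs on T cells, their part in the Itgae values was not tested.

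Other lists were given for the cells a tumor piece could hold. Of neutrophil genes, 5 of 5 tested were negative, with a median of -1.74, and 1 passed, the receptor gene Csf3r (30.1 to 41.5 CPM in saline tumors, 14.996 to 22.9 CPM in mAb-DXd/IMQ tumors; log2 fold change -0.80, adjusted p = 0.040, edgeR). It passed in 9 of 20 alternatives, and with a single tumor removed in 1 of 8, with adjusted p up to 0.134. With all 8 tumors it did not pass under upper-quartile scaling (adjusted p = 0.0501), with library size alone (0.060), or with a replicate block (0.117). At an unadjusted p under 0.05 were 4 of the 5 neutrophil genes, all lower, and 3 passed by DESeq2, 2 by edgeR's newer method, and 1 by limma-voom. The neutrophil sum was 225, 84.9, 92.4, and 125 CPM in saline tumors 1 to 4 and 33.0, 49.4, 51.4, and 67.2 CPM in mAb-DXd/IMQ tumors 1 to 4, led by S100a9, S100a8, and Csf3r, and Ly6g was at most 0.59 CPM. Saline tumor 1, low for the dendritic cell receptors, had the highest neutrophil sum. NK cell genes (1 of 5 negative; 0 passed by edgeR, 2 at an unadjusted p under 0.05, 1 lower and 1 higher, 1 by DESeq2, higher; led by Klrk1) summed to between 19.5 and 34.0 CPM in saline tumors and between 26.03 and 28.9 CPM in mAb-DXd/IMQ tumors. B cell genes (2 of 3 tested negative; 0 passed by edgeR, 2 at an unadjusted p under 0.05 and 2 by DESeq2, each 1 lower and 1 higher; led by Cd79b) were low, with Cd79b at most 1.43 CPM and Ms4a1 at most 0.37 CPM in any tumor. In the lymph node list, 1 of 2 tested was negative and 0 passed by edgeR (1 at an unadjusted p under 0.05 and 1 by DESeq2, lower). Its sum, with Cxcl13 as the most abundant gene on average, was at most 7.97 CPM, with Glycam1 at most 0.12 CPM and Madcam1 at most 0.26 CPM. The part of these cells in the marker values was not tested.

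The summed keratinocyte genes reached 206, 32.4, 146.6, and 98.5 CPM in saline tumors 1 to 4 and 214, 510.2, 223, and 99.4 CPM in mAb-DXd/IMQ tumors 1 to 4, with 3 of 3 tested positive, 0 passed by edgeR, DESeq2, or limma-voom, 0 at an unadjusted p under 0.05, and Krt14 as the most abundant. Krt14 is also a gene of mammary tumor cells. Krt1, Krt5, and Krtdap together reached 37.9 CPM in saline tumor 1, 153 CPM in mAb-DXd/IMQ tumor 2, and at most 7.45 CPM elsewhere. In saline tumor 1, Krt5 gave 22.1, Krtdap 8.76, and Krt1 7.01 CPM. Krt10, of the same list, was 7.87 CPM there, within the saline range of 6.14 to 7.94 CPM, and 29.0 CPM in mAb-DXd/IMQ tumor 2. Without saline tumor 1 and mAb-DXd/IMQ tumor 2, an alternative chosen after seeing the data, 0 of 10 markers passed and 21 genes passed in all. Cd207, the Langerhans cell gene, was at most 0.75 CPM outside mAb-DXd/IMQ tumor 2, where it was 1.63 CPM, and the other gene of its list, Epcam, was 193 to 701 CPM as in epithelium. The simple epithelial keratins (0 of 4 negative, 1 of 4 with a correction for gene length; 0 passed by edgeR or DESeq2 and 0 at an unadjusted p under 0.05) were led by Krt18 and Krt8 and summed to between 1442 and 1741 CPM in saline tumors and between 1331 and 2361 CPM in mAb-DXd/IMQ tumors. The part of skin in the marker values of saline tumor 1 was not tested.

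The count of genes past the thresholds, 197 with 101 higher and 96 lower, also rested on single tumors. It was 111 without saline tumor 2, 10 without saline tumor 3, 11 without saline tumor 4, 76 without mAb-DXd/IMQ tumor 2, 88 without mAb-DXd/IMQ tumor 3, and 12 without mAb-DXd/IMQ tumor 4, and under upper-quartile scaling 145 were higher and 73 lower.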

How the data were processed

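Raw counts of reads from poly(A) RNA of 8 tumors were deposited by the authors in a table that also gives gene lengths; no scaling had been applied to them. The submitters' processing notes name HISAT2, HISAT, TopHat2, and the build mm39, but the coordinates of the 10 markers in the table match GRCm38 (GENCODE vM21). The counting program and strand setting are not given in the sources used here. Genes were kept by filterByExpr (minimum count 10, minimum total 15) and compared by the quasi-likelihood F-test of edgeR 4.0.16 with TMM factors in R 4.3.3 and Benjamini-Hochberg adjustment over all tested genes, without covariates. Standard errors were derived from the F statistic. Log2 CPM used a prior count of 2, and FPKM were CPM per kilobase of the deposited length. Alternatives used limma 3.58.1, DESeq2 1.42.0, other scalings and filters, a correction for gene length by splines with 5 degrees of freedom, a replicate block, and leaving out each tumor. Named genes were the 10 markers, list genes past both thresholds, up to 3 of the most abundant genes of each list, and the 5 profiles nearest to Xcr1 and Clec9a; others were chosen after their values were seen. The markers and lists were chosen with earlier results of these data known, so no list was tested. The heat map's genes and the overlap of groups with each tumor left out were also chosen after values were seen. The summed B cell list is not reported here. The fit was tested on simulated data. No libraries within a group were duplicates, and the labels give no batch.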

Additional observations from a re-analysis of the deposited data

Results flagged for a closer look

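In 62 groups of 4 tumors, covering the 10 markers, Ptprc, and the summed lists, the tumor farthest from the rest was compared with the range of its group, and 4 groups stood out. Chance sets apart about 1 in 20 groups, or 3.1 of 62. For Itgax in mAb-DXd/IMQ tumors the gap was 0.959 of the range, with 128 CPM in tumor 3 and 64.2 to 66.8 CPM in the other 3. For Ptprc it was 0.9096, with 193 CPM in the same tumor and 119 to 125 CPM in the others. The summed list of shared dendritic cell and FLT3 signaling genes gave 0.9001, again through mAb-DXd/IMQ tumor 3 at 318 CPM against 230.0 to 239 CPM. The sum of Cd207 and Epcam gave 0.869 in saline tumors, where tumor 2 had 193 CPM and the others 414 to 447 CPM. No explanation was tested for these values.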

How the results depend on the processing

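For the 10 markers, the count past the thresholds was 0 with all 8 tumors under each scaling, each filter, limma-voom, the newer edgeR method, and FDR alone, and 2 with DESeq2. Cd209a was not tested under the filter of 1 CPM in 4 tumors. Over the fits that leave out a tumor, the marker count lay between 0 and 3. The count over all genes was 358 without a filter, where more genes were tested, 787 with DESeq2, and between 10 and 203 with each tumor left out. It was 21 without the 2 tumors with epidermal keratin counts, an alternative chosen after seeing the data, with fewer samples. The log2 fold change of Itgax turned to -0.12 without mAb-DXd/IMQ tumor 3 and reached 0.29 without mAb-DXd/IMQ tumor 1, and the other 9 markers kept a negative sign. For the differences elsewhere, the cause was not tested. Same-numbered tumors shared only a number: the correlations of their deviations were between -0.17 and 0.079, and 1 of 4 saline tumors correlated best with its own number. With the number as a replicate block, 14 genes passed in place of 197, and 0 of 10 markers. Longer genes tended to lower fold changes across all tested genes (Spearman's rho -0.21, and -0.066 after the length correction), under which the markers' log2 fold changes lay between -1.55 and 0.21. Restricting each list to tested genes moved 0 of 22 sums by more than 1 SD. Depth limits Cd209a and Siglech, with as few as 10 and 6 counts in a tumor.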
